A study of Mus musculus with 6 samples.

Results

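The X-linked testis miRNAs mmu-miR-465a, mmu-miR-465b, mmu-miR-465c, mmu-miR-741, mmu-miR-743a and mmu-miR-743b (mmu for mouse, left out below) were followed in mature sperm of the cauda epididymis, where sperm are held after passing through the epididymal duct. They were chosen by name. Every feature of the deposited miRNA table in which one of these 6 names appears, from either arm of the hairpin, was taken, which gave 10 of 778 features. The table was compared between 3 samples from stress-induced depressed mice (stress samples) and 3 samples from normal mice (normal samples). Both groups were C57BL/6 males at 8 weeks of age. The labels name neither the stress procedure nor a transgene or drug, and they do not say whether a sample is 1 animal or a pool. Nor do they tie replicates to separate animals, so each p-value speaks only of the spread among these libraries, part or all of which may be technical.

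A miRNA is cut from a hairpin transcript, and the arm that is loaded into an Argonaute protein pairs with target mRNAs mainly through its seed, bases 2 to 8 of the mature strand. The miR-465, miR-741 and miR-743 hairpins belong to a fast-evolving miRNA group of the mouse X chromosome that is transcribed mainly in testicular germ cells. Many miRNAs of the X chromosome remain active in spermatocytes while most other X-linked genes are silenced. Deletion of the miR-465 hairpins in mice has been described to shift the sex ratio of the offspring.

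The mature sequences of the deposited table are shown because they decide which reads the members can share. They run 5′ to 3′, the capitals mark the seed, and all 12 mature names have the same sequence in RefSeq (GRCm38.p6).
miR-465c-5p: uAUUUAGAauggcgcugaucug
miR-465b-5p: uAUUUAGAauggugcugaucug
miR-465a-5p: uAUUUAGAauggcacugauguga
miR-465a/b/c-3p: gAUCAGGGccuuucuaaguaga
miR-743a-5p: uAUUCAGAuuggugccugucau
miR-743b-5p: uGUUCAGAcugguguccauca
miR-743a-3p: gAAAGACAccaagcugaguaga
miR-743b-3p: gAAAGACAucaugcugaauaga
miR-741-3p: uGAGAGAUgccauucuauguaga
miR-741-5p: uACGUAGAuugguaccuaucaug

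The 3 miR-465 5p strands share the seed AUUUAGA and differ only outside it. Counted from 1 at the 5′ end, miR-465b-5p and miR-465c-5p differ by 1 base (U13C), and miR-465a-5p and miR-465c-5p differ over their shared 22 bases by A14G and G20C, with 1 more base at the end of miR-465a-5p. The miR-465 3p strands of the a, b and c hairpins are identical and stand as 1 combined feature in the table, called miR-465a/b/c-3p here. miR-743a-3p and miR-743b-3p share the seed AAAGACA and differ by C9U, A12U and G18A. Their 5p strands differ inside the seed as well (A2G). Outside the members, the AUUUAGA seed was found in the table in miR-465d-5p alone, with 4 reads over all samples. The seed of miR-743a-5p was found also in miR-871-5p, another X-linked testis miRNA. Because the strands are so alike, single values of the miR-465 5p copies depend on how a read that fits several of them was divided.

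The member strands come from 8 hairpins, all on the minus strand within 62369 bases of the X chromosome (GRCm38.p6, chrX:66776757-66839125). That stretch holds 19 RefSeq miRNA hairpins, and no hairpin lay within 100 kb outside it. In GENCODE M21 the 8 hairpins overlap no gene other than their own miRNA genes, so none of them lies in an exon or intron of a host gene there. Mir743 and Mir743b are 437 bases apart, and Mir741 follows 19472 bases further along the chromosome. The 5 miR-465 hairpins (Mir465c-1, Mir465b-1, Mir465c-2, Mir465b-2 and Mir465) stand 3166 to 3236 bases from each other. The 2 arms of Mir743b were measured as features of that hairpin alone. In Mir465c-1 the 5p strand is shared by 2 hairpins and the 3p strand by all 5, so its reads cannot be assigned to it. Both hairpins are shown as examples, with the mature arms in capitals.
Mir465c-1, chrX:66825955-66826035, minus strand: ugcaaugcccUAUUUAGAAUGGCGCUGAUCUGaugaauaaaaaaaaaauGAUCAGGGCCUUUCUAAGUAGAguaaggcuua
Mir743b, chrX:66777256-66777332, minus strand: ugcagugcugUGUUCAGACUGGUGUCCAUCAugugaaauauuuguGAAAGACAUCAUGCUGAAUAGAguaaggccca

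The libraries held 1010203 to 1522849 miRNA reads in stress samples and 1083237 to 3067208 in normal samples. Normal replicate 3 stood apart in depth and in its ratio of miRNA reads to estimated tRNA-fragment reads, at 2.67 against 0.367 to 0.835 in the other 5 libraries. Normal replicate 1 stood apart in its let-7 share, at 41.0% of the miRNA reads against 18.7% to 26.4% in the other 5. The scaling factors of the trimmed mean of M-values (TMM) separated the groups, at 1.24 to 1.38 in stress and 0.683 to 0.859 in normal samples. Markers of male germ cells (miR-34b, miR-34c and miR-449) were present, with 5 of 7 features above 0 in every library and a sum of 768.2 to 955.1 reads per 1000000 miRNA reads (RPM) in stress samples and 308.3 to 609.3 in normal samples. Markers of other cells were present too. Epithelial markers (8 of 9 features above 0 in every library) summed to 28908 to 31999 RPM in stress and 12354 to 17474 in normal samples. Stromal and endothelial markers (9 of 11) summed to 9337 to 10885 RPM in stress and 2683 to 4964 RPM in normal samples. Leukocyte markers (3 of 7) summed to 220.9 to 490.0 RPM in stress and 48.5 to 188.9 RPM in normal samples. Red blood cell markers (3 of 6) overlapped, at 268.3 to 817.5 RPM in stress and 340.7 to 1018 RPM in normal samples. No marker feature was at 0 in all 6 libraries. In RPM most miRNAs were higher in stress, 56.8% of the 236 tested ones without overlap. On the TMM scale used for the members below, the marker sums overlapped for male germ cells (558.5 to 741.7 CPM in stress and 399.5 to 892.5 CPM in normal samples) and for epithelium (21858 to 24848 CPM in stress and 18095 to 21980 CPM in normal samples). They overlapped there for leukocytes and red blood cells as well. The leukocyte sum was mostly miR-150-5p, at a mean of 212.1 of 262.3 CPM in stress and 85.6 of 133.7 CPM in normal samples. Its smaller features did not run 1 way. The mean of miR-223-3p was higher in stress (13.7 against 2.52 CPM), and those of miR-142a-3p (9.19 against 15.1 CPM) and miR-223-5p (14.1 against 23.3 CPM) were lower. The stromal and endothelial sum did not, at 7251 to 8006 CPM in stress and 3476 to 6751 CPM in normal samples. Whether these sums have a part in the member values was not tested, and fewer cells of a type cannot be told apart from less RNA per cell.

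All members together took a small share of the miRNA reads. The share was 0.279%, 0.330% and 0.277% in stress replicates 1 to 3 (95% Wilson intervals 0.269% to 0.290%, 0.321% to 0.339% and 0.267% to 0.288%). It was 0.255%, 0.254% and 0.241% in normal replicates 1 to 3 (0.246% to 0.265%, 0.245% to 0.264% and 0.235% to 0.246%). These intervals cover counting error only. The mean share was 0.296% ± 0.030 in stress and 0.250% ± 0.008 in normal samples (SD, n = 3 each), without overlap. Set against the miRNA reads outside let-7 and miR-148a-3p, the order turned round, with 0.757% ± 0.083 in stress and 0.957% ± 0.060 in normal samples, again without overlap. The direction of the members' summed share thus depended on whether the let-7 and miR-148a-3p reads, the bulk of these libraries, were counted. No test was run on these sums.

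The miR-465 5p strands made up most of the member reads. They held 73.3%, 82.0% and 78.9% of them in stress replicates 1 to 3 and 62.4%, 79.9% and 77.4% in normal replicates 1 to 3. miR-465c-5p and miR-465b-5p ranked 41 and 43 by reads among the 778 features, with 9283 and 8643 reads over all libraries. Their mature sequences occur in 2 hairpins each. miR-465a-5p, which occurs in 1 hairpin, had 245 reads, against 4642 and 4322 reads per hairpin copy for miR-465c-5p and miR-465b-5p. The combined 3p strand, present in all 5 hairpins, had 3132 reads, or 626.4 per copy.

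Levels are given below as TMM-scaled counts per 1000000 tested reads (CPM), and the fold change is the log2 ratio of stress over normal samples fitted by edgeR's quasi-likelihood test across all 236 miRNAs that passed a filter on low counts. Of the 10 member features 9 passed the filter. Two-sided p-values were adjusted over the 236 by the Benjamini-Hochberg method, with a threshold of 0.05. Of the 9 tested members 2 fell, 0 rose and 7 did not pass. Over all 236 miRNAs, 24 (10.2%) fell and 6 (2.54%) rose. The members' median log2 fold change was −0.29, and that of all tested miRNAs was 0.00. The members' median was −0.44 without stress replicate 2, −0.17 without stress replicate 1 and −0.081 without normal replicate 2, and it was positive with the miRNA total (0.48) and with the 3 tables (0.024). The members that fell were miR-743b-5p and miR-465a/b/c-3p. The 3p arm of miR-743b had more reads than its 5p arm, and the miR-465 5p strands together had more than the combined 3p strand.

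miR-743b-5p was at 14.8, 25.9 and 17.3 CPM in stress replicates 1 to 3, against 62.2, 52.7 and 35.7 CPM in normal replicates 1 to 3. All 3 stress samples lay below every normal sample. The log2 fold change was −1.34 ± 0.36 (SE, adjusted p = 0.032 in edgeR, n = 3 per group). It rested on 20 to 49 reads per stress library and 40 to 94 per normal library. The call was lost without stress replicate 1 or 3 or normal replicate 1 or 2 (edgeR adjusted p = 0.086, 0.10, 0.11 and 0.078), with log2 fold changes from −1.62 to −1.16 over the 6 samples left out.

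miR-743b-3p, the other arm of that hairpin, was at 78.7, 79.3 and 65.5 CPM in stress samples, against 89.7, 82.9 and 53.1 CPM in normal samples. The groups overlapped and the log2 fold change was 0.00 ± 0.29 (edgeR adjusted p = 0.999, n = 3 per group).

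The combined miR-465a/b/c-3p was at 299.9, 206.3 and 185.0 CPM in stress replicates 1 to 3, against 912.7, 430.4 and 375.8 CPM in normal replicates 1 to 3. All stress samples lay below all normal samples, and normal replicate 1 stood far above the rest. The log2 fold change was −1.31 ± 0.38 (edgeR adjusted p = 0.044, n = 3 per group). Without normal replicate 1 it was −0.82 (edgeR adjusted p = 0.11). The call was also lost without normal replicate 2 or stress replicate 2 or 3 (edgeR adjusted p = 0.065, 0.13 and 0.14).

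The miR-465 5p strands did not pass. miR-465b-5p was at 721.6, 1007 and 716.8 CPM in stress samples, against 1158, 1518 and 1006 CPM in normal samples, with stress replicate 2 level with normal replicate 3. Its log2 fold change was −0.59 ± 0.28 (edgeR adjusted p = 0.16, n = 3 per group). miR-465c-5p was at 840.4, 1139 and 849.3 CPM in stress samples, against 882.8, 1430 and 1136 CPM in normal samples, which overlapped (−0.29 ± 0.28, edgeR adjusted p = 0.51, n = 3 per group). When each sample was left out it lay between −0.46 and −0.081. miR-465a-5p was at 26.7, 34.9 and 24.5 CPM in stress samples, against 22.7, 27.6 and 26.2 CPM in normal samples. It had the smallest level of the 3 and the groups overlapped (0.17 ± 0.32, edgeR adjusted p = 0.74, n = 3 per group), with 0.0044 to 0.28 when each sample was left out.

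The remaining members did not pass either. miR-743a-5p was at 25.2, 24.9 and 22.3 CPM in stress samples, against 67.0, 30.3 and 31.5 CPM in normal samples. The stress samples lay below the normal ones, with normal replicate 1 alone far above (−0.81 ± 0.37, edgeR adjusted p = 0.16, n = 3 per group), and without that library the log2 fold change was −0.37. miR-743a-3p was at 44.5, 57.7 and 48.2 CPM in stress samples, against 26.3, 34.2 and 66.4 CPM in normal samples. Normal replicate 3 was the highest of the 6 and the groups overlapped (0.20 ± 0.37, edgeR adjusted p = 0.73, n = 3 per group). miR-741-3p was at 116.6, 82.5 and 85.6 CPM in stress samples, against 88.5, 115.8 and 69.1 CPM in normal samples, with wide overlap (0.07 ± 0.30, edgeR adjusted p = 0.88, n = 3 per group). miR-741-5p, the arm that did not pass the filter, had 0, 3 and 2 reads in stress samples and 0, 1 and 2 reads in normal samples. A library with 0 reads allows up to 3. Without the filter the log2 fold change of miR-741-5p was 0.55 ± 1.62 (edgeR adjusted p = 0.88), too imprecise to tell a difference from none.

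**Figure D1:**
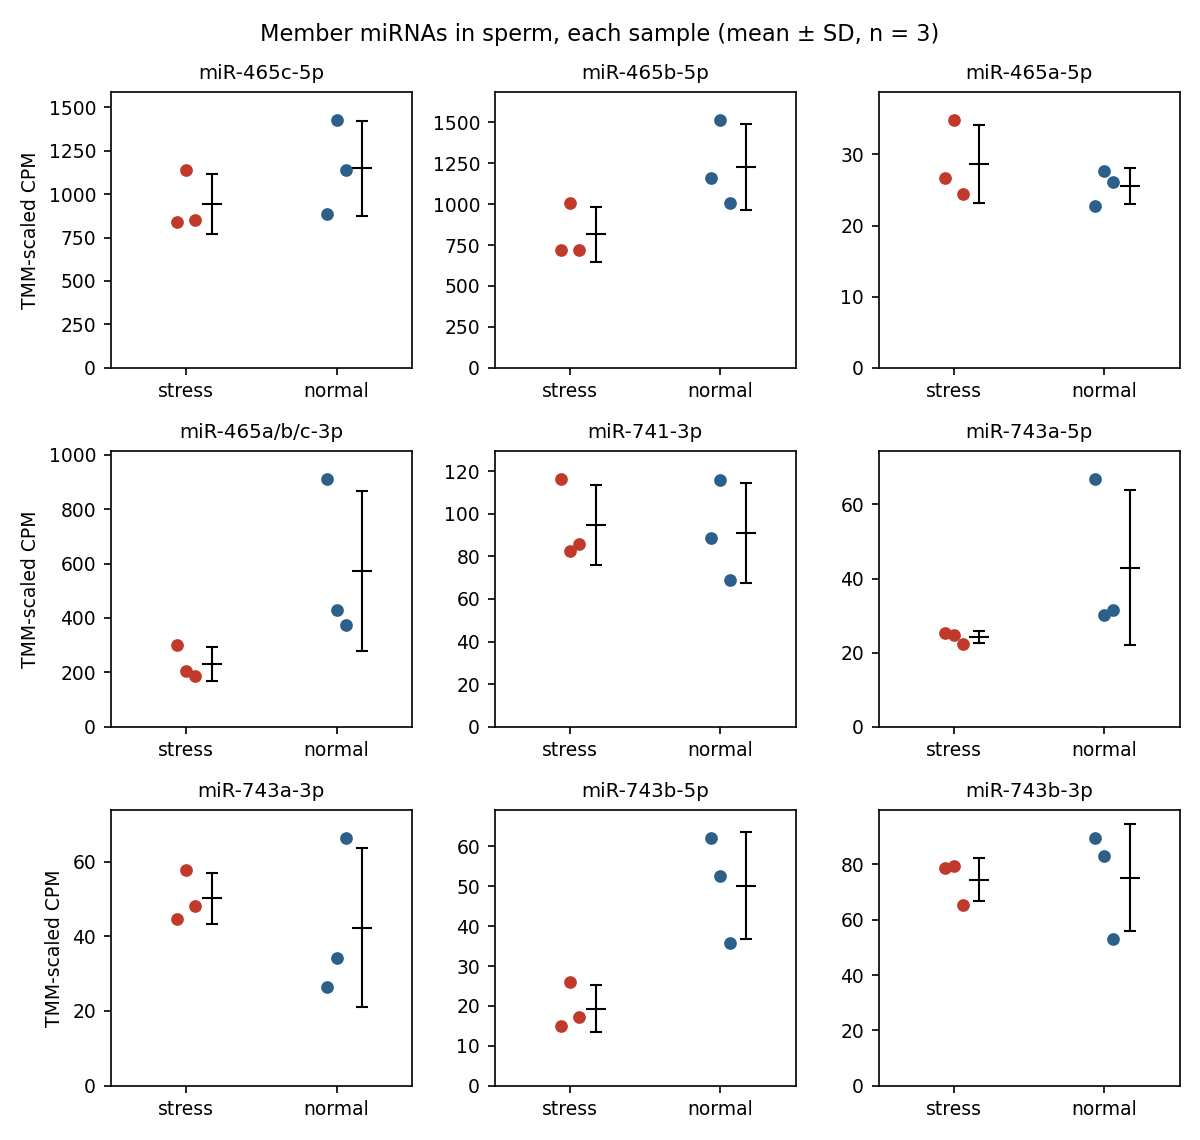
Level of each tested member in TMM-scaled CPM (y axis, from 0) in stress and normal samples; points are samples, bars the mean ± SD (n = 3). miR-465a/b/c-3p, miR-743b-5p and miR-743a-5p show no overlap between groups, and normal replicate 1 is the highest point for miR-465a/b/c-3p at 912.7 CPM.

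On TMM-scaled CPM the groups did not overlap for 3 of the 9 tested members (miR-743b-5p, miR-743a-5p and miR-465a/b/c-3p), each lower in stress, while 20.8% of the 236 miRNAs were lower in stress without overlap. Of these 3, miR-743b-5p and miR-743a-5p have the lowest read numbers beside miR-465a-5p.

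The direction of several members depended on the scaling. With the miRNA total as library size, the median of the 236 miRNAs was 0.76, and miR-465c-5p (0.48) and miR-465b-5p (0.18) turned positive. There 0 members fell and 2 rose, miR-465a-5p (0.91 ± 0.33, edgeR adjusted p = 0.042) and miR-741-3p (0.84 ± 0.29, edgeR adjusted p = 0.037), beside 40.7% of all miRNAs that rose and 4.24% that fell. miR-743b-5p and miR-465a/b/c-3p stayed negative there, at −0.59 and −0.56, without passing (edgeR adjusted p = 0.19 and 0.24). In RPM, 5 of the 9 tested members were higher in stress without overlap, against 56.8% of the 236. With the total of the 3 deposited tables as library size, an estimate, 0 members passed in either direction (1.27% of all miRNAs in each direction), and the median of all miRNAs was 0.25. miR-743b-5p and miR-465a/b/c-3p were at −0.92 and −0.93 (edgeR adjusted p = 0.76 and 0.74), and miR-465c-5p was at 0.024. Another library size shifts every miRNA by a similar amount, so values relative to the median of the same scaling moved little by construction. miR-743b-5p lay at −1.34 relative to the median with TMM, at −1.35 with the miRNA total and at −1.17 with the 3 tables. miR-465a/b/c-3p lay at −1.31, −1.32 and −1.18 relative to the median in these 3 scalings. miR-465b-5p lay at −0.59, −0.58 and −0.45, miR-743a-5p at −0.81, −0.83 and −0.72, and miR-741-3p at 0.07, 0.08 and 0.16 relative to it.

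**Figure D2:**
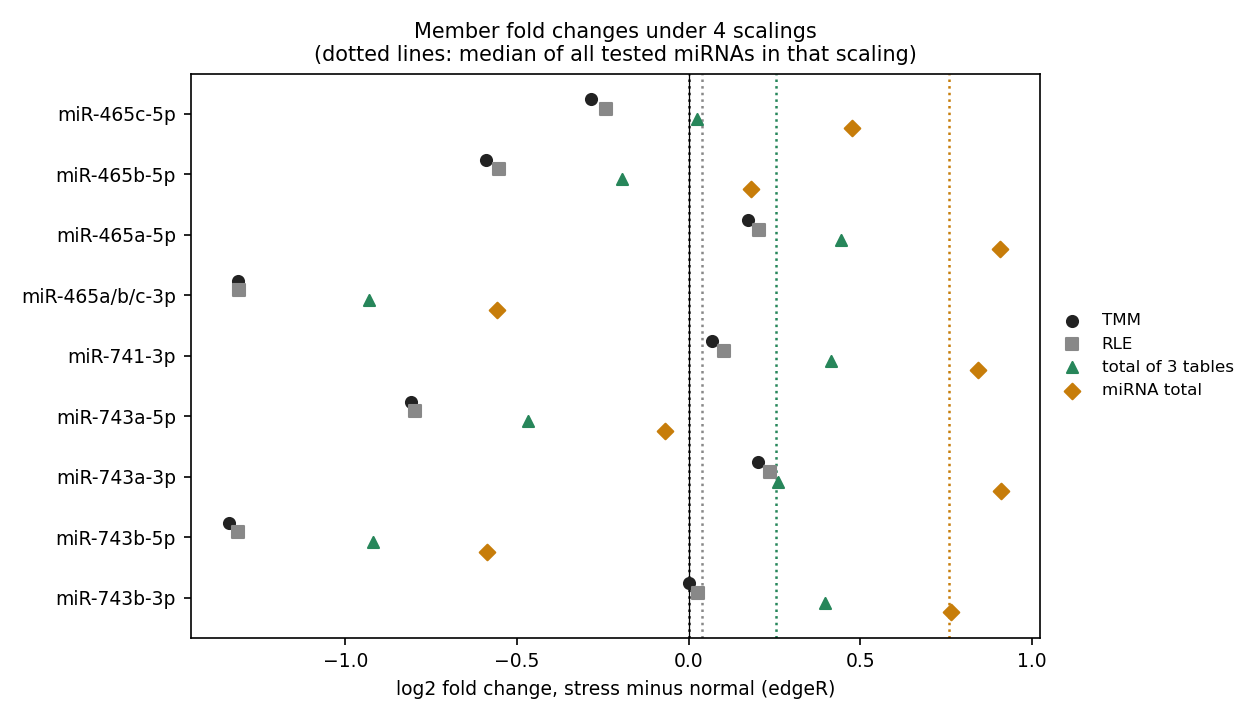
Log2 fold change of each tested member, stress minus normal (x axis), under 4 scalings (symbols); dotted lines mark the median of all 236 tested miRNAs in each scaling. The symbols move to the right together with the dotted lines, which lie at 0.00 with TMM and 0.76 with the miRNA total.

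The 2 arms of a hairpin come from the same transcript and library, so their read ratio needs no scaling factor. It could be formed for miR-743b, for miR-743a and for the miR-465 hairpins, where the 5p reads of a, b and c were summed against the combined 3p strand. miR-741 was left out because its 5p arm averaged 1.33 reads. Changes are differences of log2 ratios, tested by a two-sided exact permutation test that cannot give a p below 0.1 with 3 samples against 3, adjusted over the 3 hairpins.

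In miR-743b the 5p arm had 0.189, 0.327 and 0.264 reads per 3p read in stress replicates 1 to 3, against 0.693, 0.635 and 0.671 in normal replicates 1 to 3. The normal libraries lay close together and the stress libraries all below them. The log2 ratio was −1.96 ± 0.39 in stress and −0.58 ± 0.06 in normal samples (SD, n = 3 each), a difference of −1.38 (exact permutation p = 0.1, adjusted p = 0.3). It ranged from −1.56 to −1.17 when each sample was left out. In miR-743a the ratio was 0.567, 0.431 and 0.463 in stress samples, against 2.52, 0.885 and 0.474 in normal samples. The groups overlapped, and the difference of −1.06 (exact permutation p = 0.2, adjusted p = 0.3, n = 3 per group) was −0.42 without normal replicate 1 and −1.61 without normal replicate 3.

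In the miR-465 hairpins the 5p arm had 5.30, 10.6 and 8.60 reads per 3p read in stress replicates 1 to 3, against 2.26, 6.91 and 5.77 in normal replicates 1 to 3. The ratio thus ran the other way than in miR-743, though the groups overlapped (difference 0.80, exact permutation p = 0.3, adjusted p = 0.3, n = 3 per group). Normal replicate 1 was the lowest, and without it the difference was 0.31. Without stress replicate 1 it was 1.09, and without normal replicate 2 it was 1.12.

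**Figure D3:**
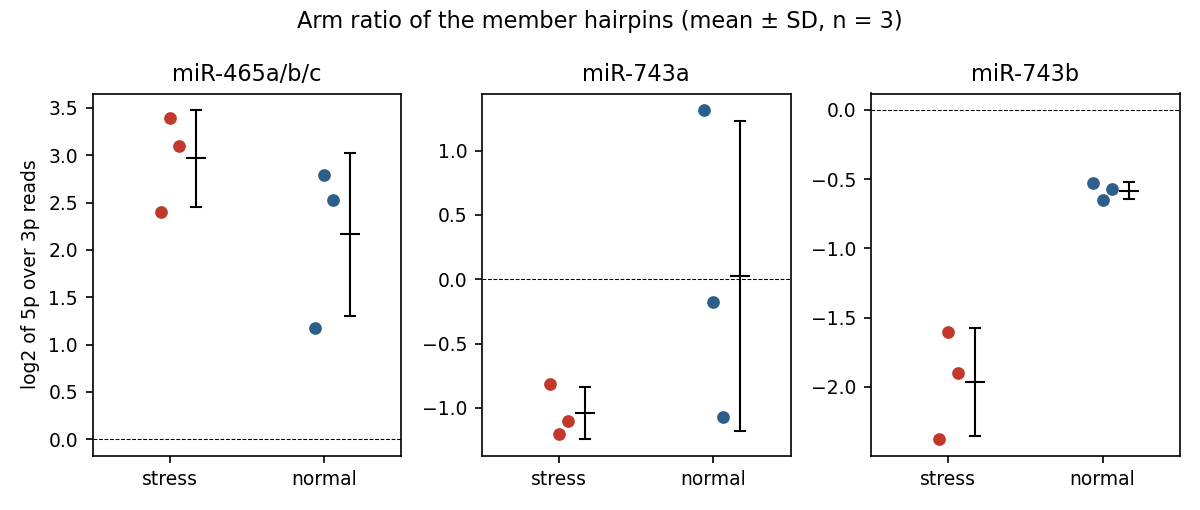
Log2 of 5p over 3p reads (y axis) for the member hairpins in stress and normal samples; points are samples, bars the mean ± SD (n = 3), and the dashed line marks equal arms. For miR-743b all stress samples lie below all normal samples, and for the other hairpins the groups overlap.

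Shifts of this size in the arm ratio were common in the table. Of 47 hairpins whose arms are separate features with at least 10 reads each on average, 55.3% had groups without overlap, 25.5% lower and 29.8% higher in stress. The median size of the change was 1.06 on the log2 scale. The change of miR-743b was larger than that of 70.2% of these hairpins, that of miR-743a than 48.9% and that of miR-465 than 36.2%. The member hairpins therefore lay within the spread of the whole table.

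**Figure D4:**
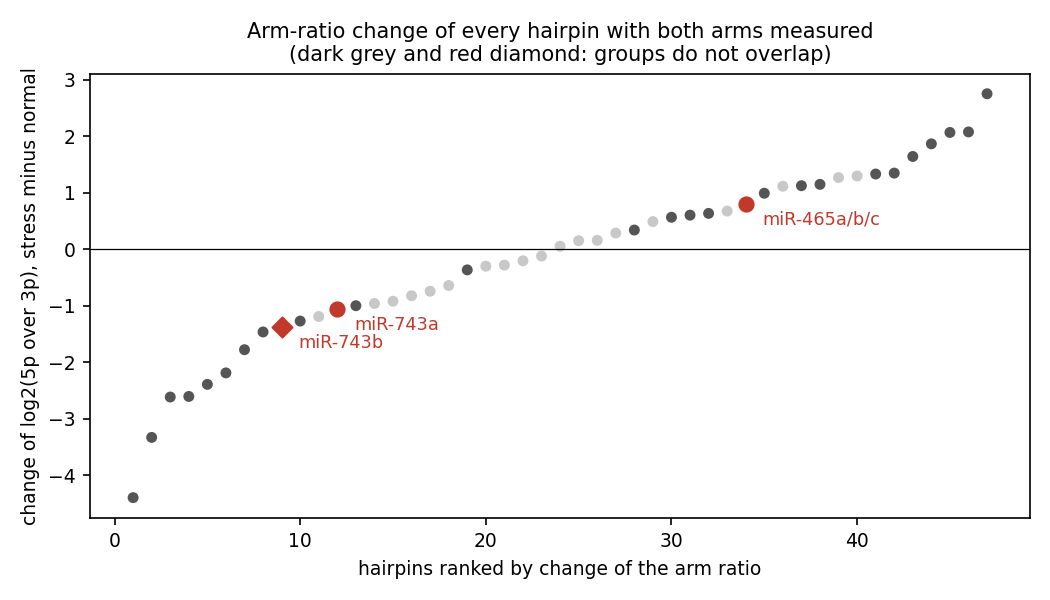
Change of the log2 arm ratio, stress minus normal (y axis), for 47 hairpins ranked along the x axis; dark grey points and the red diamond mark hairpins whose groups do not overlap, and red marks the members. miR-743b lies at −1.38, miR-743a at −1.06 and miR-465a/b/c at 0.80, inside a range of −4.40 to 2.75.

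The miR-465 5p reads divided among the 3 copies as follows. miR-465b-5p made up 45.4%, 46.2% and 45.1% of them in stress replicates 1 to 3, against 56.1%, 51.0% and 46.4% in normal replicates 1 to 3. The stress libraries were nearly alike and lay below the normal ones, with normal replicate 3 next to them. miR-465a-5p made up 1.66%, 1.61% and 1.54% of the 5p reads in stress samples, against 1.10%, 0.929% and 1.21% in normal samples, also without overlap. miR-465c-5p, the largest share, made up 52.9%, 52.2% and 53.4% in stress samples, against 42.8%, 48.0% and 52.4% in normal samples, which overlapped. These shares were chosen after the values were seen and were not tested. They rest on strands that differ by 1 to 3 bases, so a different division of shared reads between groups cannot be told apart from a different make-up.

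Among the other X-linked testis miRNAs of the same stretch and its relatives (13 names, 15 features), 6 passed the filter, of which 1 fell, 0 rose and 5 did not pass. Over all 236 miRNAs, 10.2% fell and 2.54% rose. miR-871-3p fell, at 314.8, 259.7 and 284.3 CPM in stress samples against 740.5, 1029 and 500.4 CPM in normal samples (−1.40 ± 0.31, edgeR adjusted p = 0.016, n = 3 per group). The call was lost without stress replicate 2 or 3, with the miRNA total and with the total of the 3 tables. miR-881-3p, the most abundant of them, was at 2626 ± 466.6 CPM in stress and 4931 ± 1675 CPM in normal samples (SD, n = 3; −0.91 ± 0.29, edgeR adjusted p = 0.051). It passed in some of the other settings given below. miR-470-5p was at 185.7 ± 27.9 CPM in stress and 312.4 ± 103.9 CPM in normal samples (SD, n = 3; −0.75 ± 0.30, edgeR adjusted p = 0.12). The other 3 did not pass either: miR-878-5p was at −0.88 ± 0.35, miR-883a-3p at 1.14 ± 0.52 and miR-871-5p at 0.82 ± 0.42 (edgeR adjusted p = 0.12, 0.16 and 0.19, n = 3 per group). On TMM-scaled CPM, miR-871-3p, miR-881-3p, miR-878-5p and miR-470-5p were lower in stress without overlap, beside 20.8% of the 236 miRNAs. miR-883a-3p was higher in stress without overlap, and miR-871-5p overlapped. The median log2 fold change of these 6 features was −0.81. It was −0.02 with the miRNA total and −0.36 with the 3 tables. Leaving out normal replicate 1, 2 or 3 changed the set, as miR-471-5p and miR-463-5p then passed the filter too. The median of those 8 features was −0.37, −0.26 and −0.18, which is not comparable with the −0.81 of the 6. Without stress replicate 1, 2 or 3 the median was −0.70, −0.88 and −0.63, over 7, 6 and 7 features. For miR-871 the 5p over 3p log2 ratio was −3.56 ± 0.62 in stress and −5.63 ± 0.42 in normal samples (SD, n = 3, no test), so its arms were closer in reads in stress samples. Whether the members and these miRNAs differ was not tested.

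The level of miR-465c-5p, the most abundant member, followed those of miR-99b-5p, miR-27a-5p, miR-25-3p, miR-30b-3p and miR-10a-5p most closely over the 6 samples, with Pearson's r of the log2 CPM of 0.96, 0.95, 0.94, 0.91 and 0.86. These 5 were picked as the highest r among all tested miRNAs outside the members, and no test was run on r. All values come from the same 6 libraries and share their depth and scaling factors. None of these 5 miRNAs passed in edgeR (adjusted p = 0.14 to 0.60, n = 3 per group).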

How the data were processed

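Per the labels' protocols, sperm RNA was extracted with TRIzol and made into Illumina TruSeq libraries; the series design names BGI for library construction and sequencing. Bowtie was used, per the submitters' processing notes; its version, the genome build, the annotation and the rule for counting reads were not found in the labels or headers. The authors deposited expected counts for miRNAs. With zeros included, 92.0% of the values were whole within 0.001 and the rest were fractions. The miR-465 5p strands held fractions too, such as 1132.5 for miR-465c-5p in stress replicate 1. RPM values were deposited for piRNAs and tRNA-derived fragments, scaled to 1000000 per sample over each table. The RPM tables served only to estimate library totals from the worth of 1 read.

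The rounded counts entered edgeR 4.0.16 (R 4.3.3), with filterByExpr at 10 counts, TMM scaling and the quasi-likelihood test (glmQLFit, glmQLFTest); at least 99.9% of each library's miRNA reads lay in tested features. The SE is the size of the log2 fold change divided by the square root of F. Arm ratios used an offset of 0.5 reads. Depth ranged from 1010203 to 3067208 miRNA reads per sample. Mature sequences were taken from the deposited table and hairpins from RefSeq (GRCm38.p6). Groups came from the disease-state labels. All members were named, as were the 5 miRNAs most like the most abundant member. Of the other X-linked miRNAs, those past the threshold and the 3 most abundant were planned. The rest of the 6 tested ones were added. The members, lists and tests were chosen with earlier results of these data known. Alternatives were RLE factors, the miRNA total and the total of the 3 tables as library size, DESeq2 1.42.0, other filters, a replicate block, other denominators and offsets, and leaving out each sample.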

Additional observations from a re-analysis of the deposited data

How the results depend on the processing

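Leaving out 1 sample at a time gave 0 to 2 members lower, 0 higher, 17 to 55 of all miRNAs past the threshold (17 without stress replicate 3, 55 without normal replicate 3) and 0 to 3 of the other X-linked miRNAs. No member was lower without stress replicate 3, normal replicate 1 or normal replicate 2. Over the samples left out, miR-743a-3p lay between −0.043 (without normal replicate 1) and 0.76 (without normal replicate 3, edgeR adjusted p = 0.13). miR-743b-3p lay between −0.18 and 0.13 and miR-741-3p between −0.082 and 0.29. The sign of these changes depended on which library was left out. With the miRNA total, 0 members were lower and 2 higher, 106 of all miRNAs and 2 of the other X-linked ones passed, and miR-465c-5p and miR-465b-5p were at 0.48 and 0.18. On the total over all 3 tables, 0 members were lower, 6 of all miRNAs and 0 of the other X-linked ones passed, and miR-465c-5p was at 0.024. DESeq2 and no filter gave 47 and 49 miRNAs past the threshold. With DESeq2, no filter and RLE factors 2 other X-linked ones each were lower, miR-871-3p and miR-881-3p. For miR-881-3p the adjusted p was 0.039 in DESeq2, and in edgeR 0.024 without the filter and 0.045 with RLE factors. The difference of the members' summed share was −0.20 percentage points outside let-7 and miR-148a-3p, against 0.046 of all miRNA reads. The cause was not tested. With a replicate block 1 member was lower, miR-465a/b/c-3p (edgeR adjusted p = 0.032), while 21 of all 236 miRNAs were lower and 7 higher. miR-743b-5p was lost at an unreduced log2 fold change of −1.36 (edgeR adjusted p = 0.059). Of the other X-linked miRNAs 2 passed, miR-871-3p and miR-881-3p. Replicate numbers are not a stated pairing. The deviations of same-numbered samples from their group means had correlations of only 0.11, −0.21 and 0.12. Not every sample was closest to its own number. The directions of the arm-ratio changes held in every setting run. Members with 20 to 50 reads in a library carry counting error as well, and its part in their spread was not tested.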

Other observations

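The relation of miR-743a to its neighbour miR-743b varied between libraries. On the 3p arm there were 0.566, 0.727 and 0.736 miR-743a reads per miR-743b read in stress replicates 1 to 3, against 0.293, 0.413 and 1.25 in normal replicates 1 to 3. The stress libraries lay inside the range of the normal ones, whose highest value was normal replicate 3, the deepest library. On the 5p arm the ratio was 1.70, 0.959 and 1.29 in stress samples, against 1.07, 0.575 and 0.883 in normal samples, with overlap. The summed level of miR-743a-3p and miR-743b-3p, which share a seed, was 124.7 ± 11.7 CPM in stress and 117.6 ± 1.81 CPM in normal samples (SD, n = 3). These ratios and sums were chosen after the values were seen and were not tested.

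miR-465d, a relative whose hairpin lies next to the other miR-465 hairpins, was nearly absent. Its 5p and 3p reads together numbered 1.5, 1 and 1.5 in stress samples and 2, 0.5 and 4.5 in normal samples.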
